A study of Homo sapiens with 6 samples.

Results

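The genes of retinoic acid synthesis and response described here are 9 of the 61014 genes that were summed from the deposited transcripts. They were chosen by name: the retinaldehyde dehydrogenases ALDH1A1, ALDH1A2 and ALDH1A3, the retinoic acid receptors RARA, RARB and RARG, and CRABP2, DHRS3 and CYP26B1, which bind, divert or clear retinoids. Their RNA levels were compared between breast cancer stem cells and other cells of one line by lncRNA sequencing of total RNA. All 6 libraries came from MDA-MB-231, a line of triple-negative human breast cancer, in a paclitaxel (PTX)-resistant form. The 3 BCSC libraries are the cells sorted as positive for aldehyde dehydrogenase (ALDH) activity (ALDH+), and the 3 non-BCSC libraries are the cells sorted as negative (ALDH-). Both groups therefore share the line, the resistance and the sort, and no unsorted or drug-sensitive library was compared. The sort reads the turnover of a fluorescent ALDH substrate in living cells, not the RNA of any gene, and several ALDH enzymes can take part in that turnover.

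Retinol is oxidised to retinaldehyde by retinol dehydrogenases, and retinaldehyde is oxidised to retinoic acid by the ALDH1A enzymes. Retinoic acid enters the nucleus with the help of CRABP2 and binds RARA, RARB or RARG, which sit on DNA with an RXR partner and switch from corepressors to coactivators when the ligand binds. DHRS3 returns retinaldehyde to retinol and CYP26B1 degrades retinoic acid, and both genes, like RARB, are known targets that the receptors themselves induce.

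Total counts ran from 15925943 to 21215352 in the BCSC libraries and from 9898588 to 12263667 in the non-BCSC libraries. A count of 0 allows up to 3 counts, or 0.141 to 0.303 CPM (counts scaled to an equal library total) depending on the library. The groups differed in 2 measures of library composition. Over 406 olfactory receptor genes, which breast cells are not known to use and which here gauge reads counted without expression, the mean gene held 1.22 to 3.29 counts per kb in BCSC against 8.98 to 14.9 in non-BCSC. Across the genes tested, the fold change between the groups rose with GC content (Spearman's rho across genes 0.55, a description, since genes are not replicates). Of the markers expected in this line, VIM, CD44, EGFR, CAV1 and ANXA1 were abundant, with a summed 6730 to 7830 CPM in BCSC against 4290 to 5750 CPM in non-BCSC. The blood cell marker PTPRC was at 0.197 to 1.15 CPM in BCSC against 13.2 to 22.6 CPM in non-BCSC. The 6 markers expected low in this line, ESR1, PGR, ERBB2, CDH1, EPCAM and GATA3, summed to 81.0 to 93.2 CPM and 103 to 141 CPM, most of it ERBB2. The part of these differences in the results was not tested, except where a value is given below. Fewer cells that express a gene and less of its RNA per cell cannot be told apart in such bulk libraries.

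ALDH1A1 and ALDH1A2 were lower and CYP26B1 was higher in BCSC, and none of the other 6 genes passed the test. A gene was called changed at a Benjamini-Hochberg adjusted p under 0.05 in edgeR's quasi-likelihood test and a log2 fold change beyond 1, the values being BCSC over non-BCSC. One member (CYP26B1) was called higher, where 8.85% of the 20442 genes tested were, and 2 members were called lower, where 11.3% of the genes were. Of 6 fits with 1 library left out, 6 called CYP26B1, 1 called ALDH1A2 and 0 called ALDH1A1. By CPM, the 3 BCSC values lay above the 3 non-BCSC values for 4 of the 9 genes (ALDH1A3, RARA, RARB and CYP26B1), beside 24.2% of all genes, and below them for ALDH1A1 and ALDH1A2, beside 27.9% of all genes. The median log2 fold change of the 9 genes was 0.65, and that of all genes tested was −0.05. With GC content and length corrected, RARB (1.10) and CYP26B1 (1.39) lay above 0 and all other members below it. The median of all genes was then −0.18. The plot of levels by library shows each gene on its own scale.

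**Figure D1:**
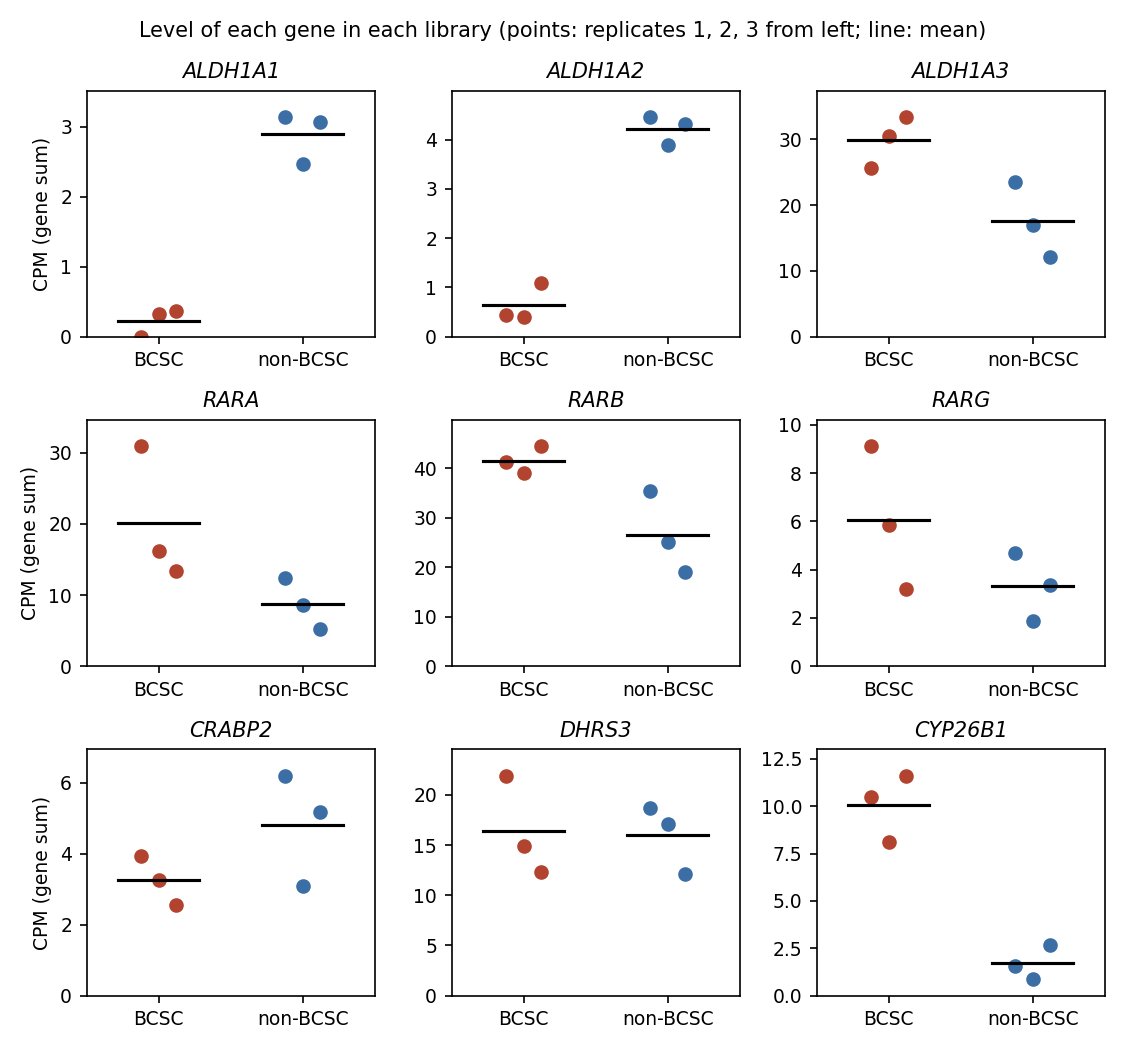
Level of the 9 genes in each library, in CPM of the summed transcripts (vertical axis, linear from 0, a different range for each gene), with points for the 3 BCSC and the 3 non-BCSC libraries and a line at the mean. ALDH1A1 and ALDH1A2 sit lower in all BCSC libraries, CYP26B1, ALDH1A3, RARA and RARB sit higher, and RARG, CRABP2 and DHRS3 overlap, all on TMM-scaled counts before any correction for GC content.

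Of the retinaldehyde dehydrogenases, ALDH1A1 and ALDH1A2 were lower in BCSC and ALDH1A3 was not called. ALDH1A1 (ENSG00000165092.13, chr9:75515587-75695358 on GRCh37, minus strand), the enzyme most often linked to ALDH+ stem cells, had 0, 5 and 6 counts in BCSC replicates 1, 2 and 3 and 38, 28 and 32 counts in the non-BCSC replicates. The groups did not overlap, and the mean level was 0.230 ± 0.20 CPM (SD, n = 3) in BCSC against 2.89 ± 0.364 CPM (n = 3) in non-BCSC. The cells sorted for ALDH activity thus held at most 6 counts of ALDH1A1 in libraries that were all larger than those of non-BCSC, and the log2 fold change was −3.63 (SE 1.19, 95% interval −6.30 to −0.97, edgeR adjusted p = 0.0446). Leaving out any 1 of the 6 libraries ended the call, with edgeR adjusted p from 0.0589 to 0.107. Even in non-BCSC, ALDH1A1 held only 1.07 to 3.39 times the counts per kb of the mean olfactory receptor gene, and the 0, 1.85 and 0.87 times of the BCSC libraries overlap with that range. The divisor was itself lower in BCSC, so these ratios gauge background and do not compare the groups. With a background subtracted by the mean length of the gene's transcripts (889 bases), the log2 fold change was −3.96, with an edgeR adjusted p of 0.0548. ALDH1A1-201, with 2096 bases, held 38 and 31 counts in non-BCSC replicates 1 and 3. Less was therefore subtracted there than the counts per kb imply. All counts of the gene fell on transcripts of one start region, ALDH1A1-201 and the shorter ALDH1A1-205.

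ALDH1A2 (ENSG00000128918.15, chr15:58245622-58790065, minus strand), the main retinoic acid source of the early embryo, had 9, 6 and 18 counts in BCSC against 54, 44 and 45 counts in non-BCSC. Every BCSC value lay below every non-BCSC value, at 0.641 ± 0.388 and 4.22 ± 0.296 CPM. The log2 fold change was −2.70 (SE 0.76, 95% interval −4.41 to −1.0, edgeR adjusted p = 0.0257), and it was called without BCSC replicate 3 but in none of the other 5 fits with 1 library left out (adjusted p up to 0.0992). The counts were scattered: 14 of its 25 annotated transcripts held some, many of them short or without a coding frame, and no start site held most of them in all libraries. ALDH1A2-204, the coding transcript with the highest mean level, had 3, 0 and 3 counts in BCSC against 9, 26 and 2 in non-BCSC. Relative to the olfactory receptor genes of the same library, ALDH1A2 stood at 3.57 to 10.3 times their mean in BCSC and at 4.39 to 10.1 times in non-BCSC, ranges that overlap. Because the divisor was lower in BCSC, that overlap does not compare the groups. Markers of blood and vessel cells moved in the same direction as ALDH1A1 and ALDH1A2: 6 of 7 such markers were matched by symbol and summed to 19.3 to 34.7 CPM in BCSC against 70.0 to 102 CPM in non-BCSC, most of it from CDH5 and PTPRC. Their part in the result was not tested.

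ALDH1A3 (ENSG00000184254.17, chr15:101417919-101456831, plus strand), a retinaldehyde dehydrogenase known to contribute to ALDH activity in breast cancer cells, carried nearly all ALDH1A RNA of the BCSC libraries. It had 519, 467 and 553 counts in BCSC against 285, 192 and 126 in non-BCSC. In CPM these were 25.6, 30.5 and 33.4 in BCSC against 23.5, 17.0 and 12.1 in non-BCSC, so that the lowest BCSC library lay just above the highest non-BCSC library. Of the summed CPM of the 3 ALDH1A genes, ALDH1A3 made up 95.8 to 98.3% in BCSC against 62.1 to 75.6% in non-BCSC. The sum itself overlapped between the groups, at 26.0, 31.2 and 34.9 CPM in BCSC against 31.1, 23.4 and 19.5 CPM in non-BCSC. The log2 fold change of ALDH1A3 was 0.77 (SE 0.27, 95% interval 0.16 to 1.37, edgeR adjusted p = 0.0577), and it turned to −0.15 (SE 0.27) once GC content and length were corrected. Without non-BCSC replicate 1 it was 1.09 and called (edgeR adjusted p = 0.0241). A single coding transcript, ALDH1A3-201, held at least 94.4% of the counts in each library. Of the annotated exon bases of ALDH1A3, 32.1% are shared with ALDH1A3-AS1 on the opposite strand, which itself had 29, 11 and 71 counts in BCSC against 64, 35 and 128 in non-BCSC. Whether reads were counted by strand is not stated, so reads of the pair could not be told apart with certainty.

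RARB was the receptor with the highest level per kb in both groups, at 12.9 ± 1.21 CPM per kb of transcript in BCSC against 7.69 ± 2.47 in non-BCSC (SD, n = 3). RARA, the widely expressed receptor, stood at 9.85 ± 4.69 and 4.30 ± 1.78 CPM per kb, and RARG, best known from skin, at 2.58 ± 0.880 and 1.98 ± 1.42 CPM per kb. The ranges of RARB and RARA overlapped in both groups, and in BCSC replicate 1 RARA stood higher (15.3 against 12.7 CPM per kb). Among all 9 genes of the BCSC libraries, RARB, RARA, ALDH1A3 and DHRS3 formed an upper group without a gap between neighbours, CRABP2, RARG and CYP26B1 (3.27, 2.58 and 2.33 CPM per kb) a middle one, and ALDH1A2 (0.706) and ALDH1A1 (0.110) lay below. In non-BCSC, DHRS3 led with 7.76 CPM per kb and CYP26B1 came last with 0.623, and only CYP26B1 was set apart from its neighbour by a gap. The per kb values share out counts by the length of each transcript, so a gene whose counts fall on short transcripts, such as ALDH1A2, ranks higher than its CPM.

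RARB (ENSG00000077092.20, chr3:24729378-25639423, plus strand) had 837, 598 and 734 counts in BCSC against 429, 283 and 199 in non-BCSC. In CPM the groups did not overlap, at 41.2, 39.0 and 44.4 in BCSC against 35.4, 25.0 and 19.1 in non-BCSC. The log2 fold change was 0.65 (SE 0.23, 95% interval 0.12 to 1.17, edgeR adjusted p = 0.0627), and with GC content and length corrected it was 1.10 and called (adjusted p = 0.00649). RARB was the only one of the 3 receptors whose direction held under that correction.

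Most RARB counts of the BCSC libraries came from one of its start regions. RARB has 23 annotated transcripts on file, and those whose starts lay within 1000 bases of each other were grouped, a grouping chosen after the data were seen. The region at chr3:25469377-25470207 (GRCh37), which holds the starts of 9 transcripts, had 784, 520 and 695 counts in BCSC against 337, 60 and 162 in non-BCSC. The values did not overlap, at 38.2 ± 4.07 CPM in BCSC against 16.2 ± 11.3 CPM in non-BCSC. This region made up 93.7, 87.0 and 94.7% of all RARB counts in BCSC against 78.6, 21.2 and 81.4% in non-BCSC. By an exact permutation test, two-sided, the difference in share had p = 0.1, the smallest that 3 against 3 libraries allow. The far upstream region at chr3:24729378-24729410 held 12, 74 and 11 counts in BCSC against 92, 137 and 28 in non-BCSC, which is 5.10 ± 6.30% and 28.0 ± 18.1% of the gene. Non-BCSC replicate 2 stood apart, with 48.4% of its RARB counts on that upstream region.

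Within the shared start region the counts fell on different transcripts in the 2 groups. RARB-201 (ENST00000330688.9), the coding transcript of 3132 bases, had 661, 387 and 573 counts in BCSC against 0, 0 and 0 in non-BCSC, which makes it at least 107-fold higher against a floor of 3 counts per library. It was the only transcript of the 9 genes that was called (edgeR adjusted p = 0.0458 over all transcripts), of 12 that passed the filter on low counts, 51 that held any count and 103 on file. Over all 46176 transcripts tested, 0.593% were called higher and 0.191% lower. With any 1 library left out RARB-201 was not called (adjusted p from 0.0704 to 0.233). In non-BCSC, RARB-220 held 246, 0 and 47 counts, and it had 0 counts in all BCSC libraries. RARB-220 shares 94.4% and RARB-209 shares 94.7% of the bases of RARB-201, and no base of RARB-201 is outside the other RARB transcripts. How the authors' counting divided reads among such transcripts is not stated, and RARB-212 of the upstream region shares 79.2% of RARB-201 too, so that both the transcript values and the shares by start region rest on that division. RARB-221, an annotated form of 4897 bases that shares only 10.8% of RARB-201, had 107, 81 and 107 counts in BCSC against 91, 60 and 69 in non-BCSC, or 5.68 ± 0.689 and 6.48 ± 1.11 CPM. RARB-212, from the upstream region, was at 2.03 ± 2.42 CPM in BCSC against 7.46 ± 4.71 CPM in non-BCSC (log2 fold change −1.83, SE 1.10, edgeR adjusted p = 0.489).

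**Figure D2:**
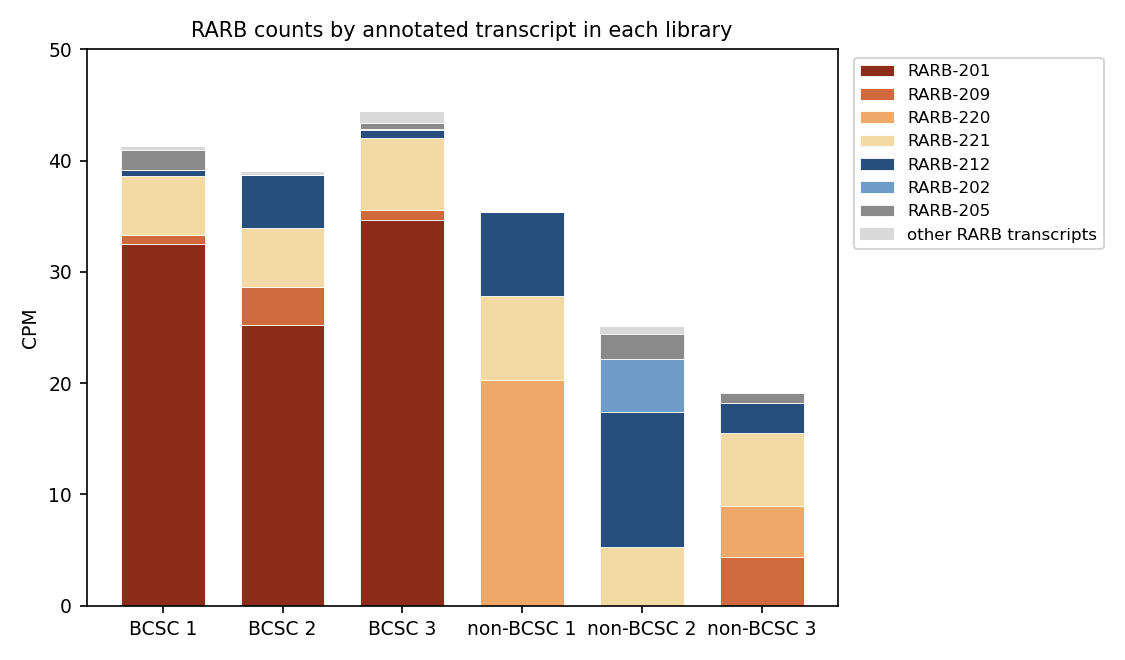
RARB counts of each library split by annotated transcript, as stacked bars in CPM (vertical axis, linear from 0), for the 3 BCSC and the 3 non-BCSC libraries. RARB-201, with 661, 387 and 573 counts, fills most of each BCSC bar and has 0 counts in non-BCSC, where RARB-220 (246, 0 and 47 counts) and RARB-212 (92, 137 and 28) hold a large part, while RARB-221 is at 5.68 and 6.48 CPM.

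The start of RARB-201 lies beside the one sequence among the genes' promoters that matched a retinoic acid response element. Such elements are direct repeats of a hexamer bound by the receptor and its RXR partner. The search took the hexamer AGGTCA or the hexamer AGTTCA, and likewise the hexamer GGGTCA or the hexamer GGTTCA, in direct repeats spaced by 1, 2 or 5 bases on either strand. It was run on RefSeq's promoter windows (GRCh38.p14, 250 bases before to 50 after a start), of which 17 belonged to the 9 genes, with at least 1 window for each gene. Only 1 of the 17 windows held a match, at RARB. The match is shown because it is the only element found. The 30 bases printed lie at chr3:25428204-25428233 (GRCh38.p14, plus strand), and the 17 bases of the match, in capitals, run from −53 to −37 relative to the start:
RARB: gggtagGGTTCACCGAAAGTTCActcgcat
It is a repeat spaced by 5, a spacing that 31 of the 35116 promoter windows (0.0883%) hold. A repeat spaced by 2 was found in 0.0399% and one spaced by 1 in 0.131% of the windows. RARB is a known target of these receptors, and the pattern searched includes both hexamers and the spacing of its match. The shares therefore describe the pattern and are not a test of RARB. The first 40 bases transcribed from this window are also found in RARB-201, RARB-203, RARB-209, RARB-211 and RARB-220. The 30 bases printed are themselves part of 3 annotated transcripts that start further upstream, RARB-209, RARB-211 and RARB-220, so that for these they are transcribed sequence. A match describes the letters, not binding, and the windows without a match say nothing of elements further away.

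RARA (ENSG00000131759.18, chr17:38465432-38513895, plus strand) had 627, 249 and 222 counts in BCSC against 150, 97 and 54 in non-BCSC. Its CPM of 30.9, 16.2 and 13.4 in BCSC lay above the 12.4, 8.57 and 5.18 of non-BCSC, with replicate 1 the highest in each group. The log2 fold change was 1.21 (SE 0.41, 95% interval 0.29 to 2.14, edgeR adjusted p = 0.0513), just outside the call, and it turned to −0.54 (SE 0.26) with GC content and length corrected. Leaving out BCSC replicate 3 (1.43) or non-BCSC replicate 1 (1.61) brought it past the call, and leaving out BCSC replicate 1 gave 0.76. RARA is the richest of the 9 genes in GC, at 62.7% of its bases. Nearly all its counts came from RARA-204 in every library but one: in BCSC replicate 2, RARA-202 held 137 of the 249 counts. RARG (ENSG00000172819.17, chr12:53604351-53626764, minus strand) had 185, 90 and 53 counts in BCSC against 57, 21 and 35 in non-BCSC, and its groups overlapped in CPM. Its log2 fold change of 0.87 (SE 0.57, 95% interval −0.41 to 2.16, edgeR adjusted p = 0.272) turned to −0.83 (SE 0.46) under the same correction. RARG-203 held 88.7 to 97.3% of its counts in BCSC, and in non-BCSC replicate 3 only 51.4%.

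CYP26B1 (ENSG00000003137.9, chr2:72356367-72374991, minus strand), the cytochrome P450 that degrades retinoic acid, had the smallest p of the 9 genes. It had 213, 124 and 191 counts in BCSC against 19, 10 and 28 in non-BCSC, or 10.5, 8.09 and 11.6 CPM against 1.57, 0.883 and 2.69 CPM. The lowest BCSC library was above the highest non-BCSC library by a wide gap. The log2 fold change was 2.55 (SE 0.51, 95% interval 1.40 to 3.70, edgeR adjusted p = 0.00719), and CYP26B1 was called in 14 of 15 alternative treatments of the data, including all 6 with 1 library left out. The exception was the correction for GC content and length, under which it was 1.39 (SE 0.51, adjusted p = 0.0619). The gene has a GC content of 58.7%. In non-BCSC its counts per kb were 0.233 to 0.931 times those of the mean olfactory receptor gene, hence at or under that background, while in BCSC they were 12.7 to 44.6 times as high. Most of its counts lay on one transcript, CYP26B1-201, with 208, 124 and 191 counts in BCSC against 19, 10 and 23 in non-BCSC (log2 fold change 2.76, SE 0.58, edgeR adjusted p = 0.0762 over all transcripts).

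The upstream sequences of CYP26B1 and ALDH1A1 are shown as those of a gene that rose and one that fell, and neither held a match to the repeats searched. They are the 250 bases before the RefSeq start on GRCh38.p14, read 5′ to 3′ on the minus strand, at chr2:72147863-72148112 for CYP26B1 and at chr9:72953054-72953303 for ALDH1A1:
CYP26B1: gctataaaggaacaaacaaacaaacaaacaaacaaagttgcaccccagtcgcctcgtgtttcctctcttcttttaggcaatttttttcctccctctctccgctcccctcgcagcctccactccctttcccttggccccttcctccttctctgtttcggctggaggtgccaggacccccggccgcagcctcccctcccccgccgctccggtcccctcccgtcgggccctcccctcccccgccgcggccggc
ALDH1A1: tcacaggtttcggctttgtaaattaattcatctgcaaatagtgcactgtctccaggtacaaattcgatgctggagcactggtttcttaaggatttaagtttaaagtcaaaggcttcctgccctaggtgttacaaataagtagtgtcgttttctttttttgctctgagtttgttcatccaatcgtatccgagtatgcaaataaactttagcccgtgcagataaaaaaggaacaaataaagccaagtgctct
The CYP26B1 stretch has a GC content of 62.8% and that of ALDH1A1 38.4%. No stretch of 30 bases of either was found in the annotated transcripts of its gene.

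CRABP2 and DHRS3 did not pass the test in either direction. CRABP2 (ENSG00000143320.9, chr1:156669398-156675608, minus strand), the protein that delivers retinoic acid to the receptors, had 80, 50 and 42 counts in BCSC against 75, 35 and 54 in non-BCSC. The groups overlapped, at 3.25 ± 0.70 and 4.82 ± 1.58 CPM, and the log2 fold change was −0.57 (SE 0.53, 95% interval −1.75 to 0.62, edgeR adjusted p = 0.441). It was called lower only with GC content and length corrected (−1.63, adjusted p = 0.0309). All of its counts fell on CRABP2-203, apart from BCSC replicate 2, where all 50 fell on CRABP2-204. DHRS3 (ENSG00000162496.9, chr1:12627939-12678216, minus strand), which reduces retinaldehyde, had 444, 228 and 204 counts in BCSC against 226, 194 and 126 in non-BCSC. At 16.4 ± 4.94 and 16.0 ± 3.44 CPM its groups overlapped, with a log2 fold change of 0.04 (SE 0.30, 95% interval −0.64 to 0.71, edgeR adjusted p = 0.940) that turned to −1.26 (adjusted p = 0.00215) with GC content and length corrected. DHRS3-204 held 90.7 to 97.8% of its counts. The 95% intervals of DHRS3 and CYP26B1, both known retinoic acid targets, do not overlap.

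**Figure D3:**
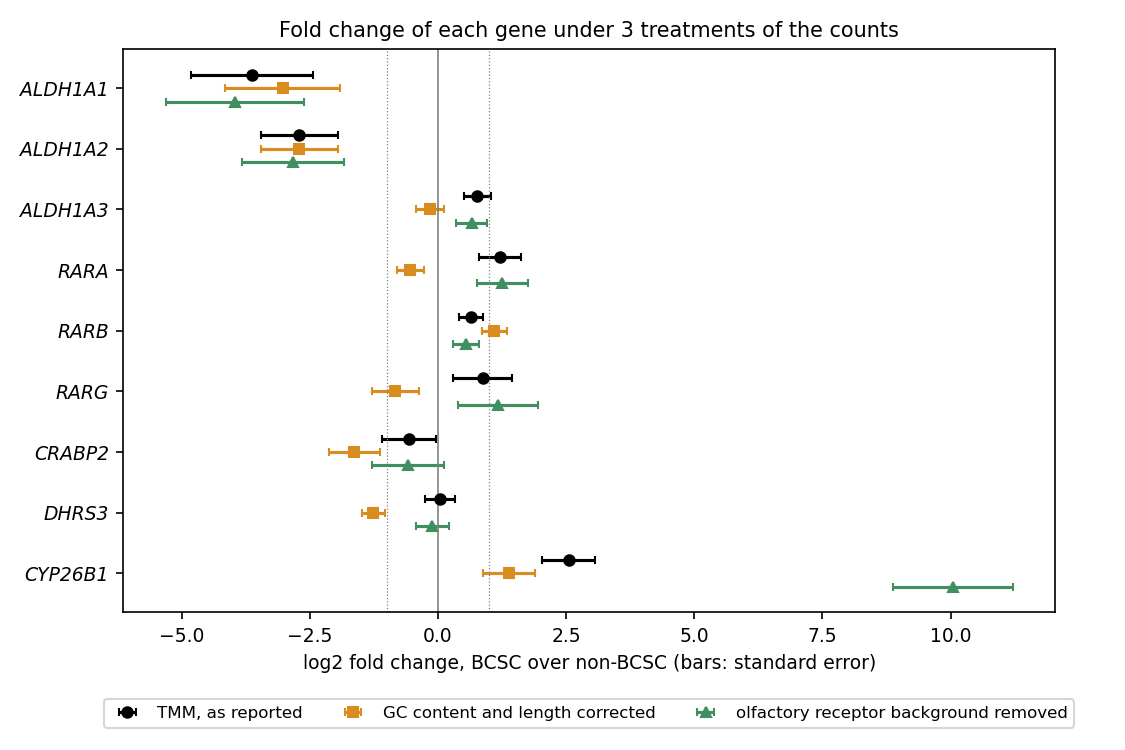
Log2 fold change of the 9 genes, BCSC over non-BCSC (horizontal axis), as reported, with GC content and length corrected, and with the olfactory receptor background removed, each with its standard error, and dotted lines at −1 and 1. ALDH1A1, ALDH1A2, CRABP2, RARB and CYP26B1 keep their side of 0, ALDH1A3, RARA, RARG and DHRS3 cross it under the GC correction, and DHRS3 also under the background removal, where CYP26B1 lies at 10.04 because nothing is left in non-BCSC.

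The levels against olfactory receptor genes of the same library gauge each gene against background, and they do not compare the groups. The divisor itself differed, at 1.22 to 3.29 counts per kb in BCSC against 8.98 to 14.9 in non-BCSC. A gene of equal level in both groups therefore stands higher against it in BCSC. DHRS3 (log2 fold change 0.04) and CRABP2 (−0.57) did so too. In BCSC, ALDH1A3 stood at 53.0 to 126 times the mean olfactory receptor gene, RARB at 71.3 to 211 times, RARA at 34.1 to 254 times and DHRS3 at 33.6 to 182 times. In non-BCSC the same genes stood at 2.81 to 9.22, 3.77 to 13.9, 1.79 to 8.25 and 4.15 to 12.1 times. RARG in non-BCSC was at 0.934 to 2.48 times, so that its few counts there are close to that background, and CRABP2 was at 3.72 to 8.57 times. The fold changes with the background removed were 0.66 for ALDH1A3, 1.26 for RARA, 0.55 for RARB, 1.17 for RARG and −2.83 for ALDH1A2 on the log2 scale, none with an edgeR adjusted p under 0.05.

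**Figure D4:**
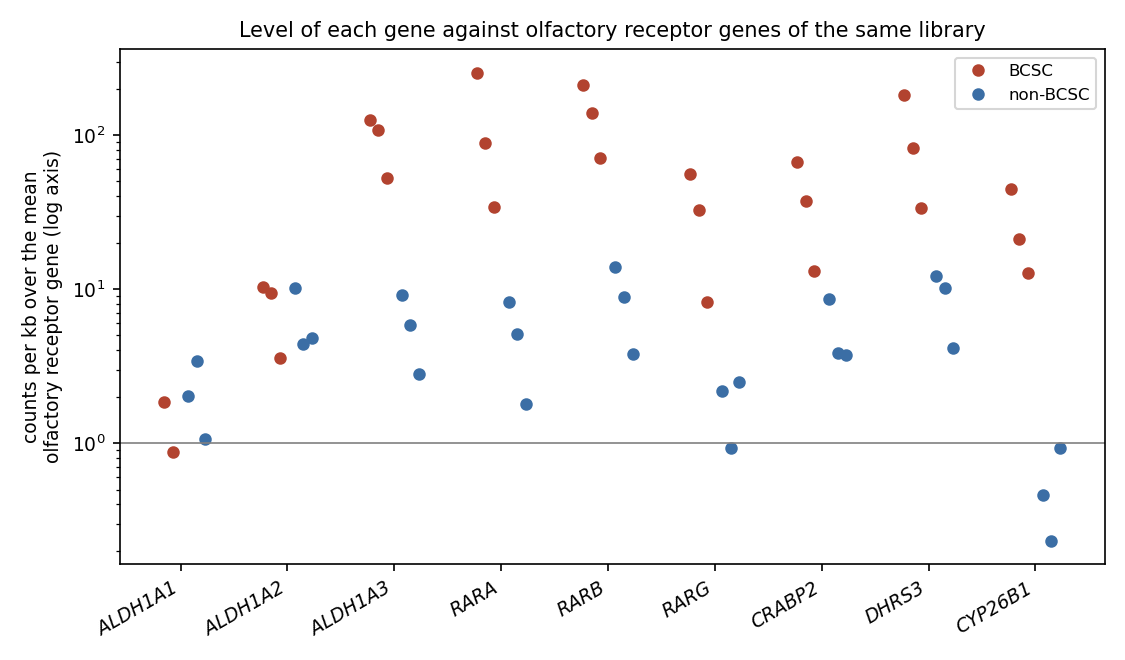
Counts per kb of each gene divided by those of the mean of 406 olfactory receptor genes in the same library (vertical axis, log scale, line at 1), with points for 3 BCSC and 3 non-BCSC libraries, and BCSC replicate 1 of ALDH1A1 not drawn because it is 0. ALDH1A1 and non-BCSC CYP26B1 lie near or under the line, and ALDH1A1 and ALDH1A2 overlap between the groups, unlike ALDH1A3, RARA, RARB, RARG, CRABP2, DHRS3 and CYP26B1, whose BCSC points lie above their non-BCSC points. The olfactory receptor genes held fewer counts per kb in BCSC, so a gene of equal level in both groups also lies higher there.

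The rest of the retinoid pathway was followed with a list of 36 genes for the uptake, storage, oxidation, reduction, binding and receptor steps, of which 25 passed the filter on low counts. In it, 3 genes were called higher and 2 lower, beside the 8.85% and 11.3% of all genes, and the median log2 fold change was 0.40. The largest difference was that of AKR1B10, an aldo-keto reductase that turns retinaldehyde back to retinol. AKR1B10 had 309, 162 and 137 counts in BCSC against 2343, 1759 and 1088 in non-BCSC, groups that do not overlap. It fell by 3.73 on the log2 scale (SE 0.28, edgeR adjusted p = 8.64e-05) and was called in all 15 alternatives. LRAT, which stores retinol as esters, had 5, 0 and 19 counts in BCSC against 71, 38 and 63 in non-BCSC (log2 fold change −3.43, SE 1.13, edgeR adjusted p = 0.0454, called in 1 of 6 fits with 1 library left out). Relative to the mean olfactory receptor gene of its library, LRAT stood at 1.54, 0 and 6.12 times in BCSC and 3.47 to 4.53 times in non-BCSC. These ranges overlap, but the divisor was lower in BCSC, so they do not compare the groups. LRAT was not called with that background removed (edgeR adjusted p = 0.0889). AKR1B1, the aldose reductase related to AKR1B10, went the other way, with 82.9, 51.4 and 53.7 CPM in BCSC against 25.7, 30.1 and 23.1 CPM in non-BCSC (log2 fold change 1.25, SE 0.22, edgeR adjusted p = 0.00407). Its value was 0.17 with GC content and length corrected and 0.49 on protein-coding transcripts only, neither called. CREBBP, an acetyltransferase that serves liganded nuclear receptors as coactivator, was at 208, 178 and 146 CPM against 76.3, 72.4 and 73.0 CPM (1.26, SE 0.14, edgeR adjusted p = 0.000588). Under the GC correction it was 1.0 (SE 0.12, edgeR adjusted p = 0.000269), no longer past the fold minimum, the only criterion it missed. RDH13, a mitochondrial member of the retinol dehydrogenase family, was at 13.2 ± 1.55 and 4.90 ± 2.51 CPM (1.43, SE 0.45, edgeR adjusted p = 0.0377). It was called in 1 of 6 fits with 1 library left out and was 0.10 with the GC correction, so that none of the 3 higher calls of the list held under that correction. Under the same correction, 2 other genes of the list were called higher.

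By the mean level per kb over all 6 libraries, AKR1B10, the corepressor NCOR1 and the retinal reductase RDH11 led the pathway list, but the order differed between the groups. AKR1B10 stood at 7.16 CPM per kb in BCSC against 94.7 in non-BCSC, and the highest in BCSC was AKR1B1 at 42.2. NCOR1 stood at 39.4 CPM per kb in BCSC against 39.1 in non-BCSC (log2 fold change 0.17, 95% interval −0.09 to 0.43), and RDH11 at 35.8 and 39.4 (−0.27, interval −0.52 to −0.03), neither called. RDH10, the main retinol dehydrogenase of retinoic acid synthesis, had 20.4, 20.2 and 20.8 CPM in BCSC against 6.44, 13.5 and 13.6 in non-BCSC, with an edgeR adjusted p of 0.0636, and is named after its values were seen.

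Of 13 other genes known as retinoic acid targets, 8 passed the filter, 2 were called higher and 0 lower, beside 8.85% and 11.3% of all genes. At an unadjusted edgeR p under 0.05 there were again 2 higher and 0 lower, beside 20.8% and 22.3% of all genes, and DESeq2 called 1 higher and 0 lower, beside 8.72% and 17.2%. The genes called were TNFAIP2, induced by retinoic acid in leukaemia cells, and GPRC5A, a receptor named for its induction by retinoic acid. TNFAIP2 was at 112, 78.3 and 63.5 CPM in BCSC against 50.1, 30 and 23.6 in non-BCSC (log2 fold change 1.29, SE 0.29, edgeR adjusted p = 0.0116), but it turned to −0.24 with GC content and length corrected. GPRC5A was at 31.9, 31.4 and 23.5 CPM against 15.9, 14.6 and 10.4 CPM (1.09, SE 0.25, edgeR adjusted p = 0.0128), and was called in 8 of 15 alternatives. BTG2 and MEIS2, the next most abundant per kb, overlapped between the groups, with log2 fold changes of 0.32 (95% interval −0.45 to 1.09) and −0.19 (−0.75 to 0.37).

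**Figure D5:**
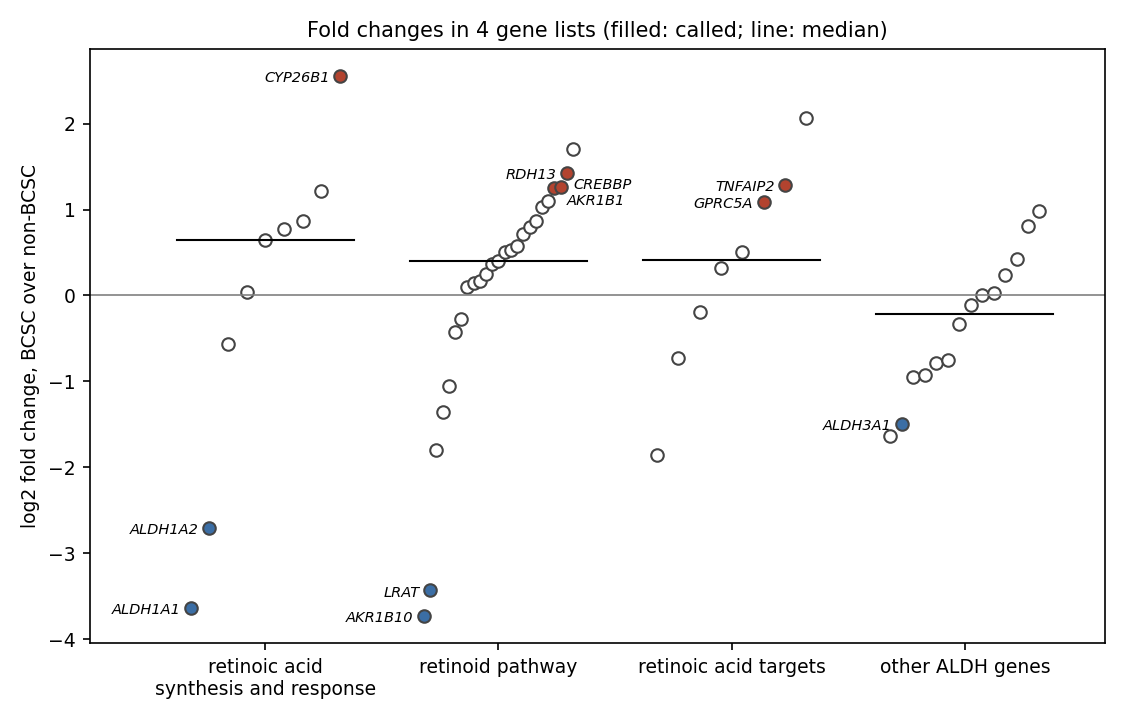
Log2 fold change, BCSC over non-BCSC (vertical axis), of every gene tested in 4 lists: the 9 genes, the retinoid pathway, the retinoic acid targets and the other ALDH genes, with called genes filled and named and a line at each median. ALDH1A1, ALDH1A2, LRAT and AKR1B10 lie lowest at −2.70 to −3.73 and CYP26B1 highest at 2.55, and of the called genes TNFAIP2 changes sign with GC content and length corrected.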

How the data were processed

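RNA of 6 libraries (3 BCSC, 3 non-BCSC, grouped by sample title) was measured by lncRNA sequencing. For each transcript the authors deposited an estimated count of its reads, a whole number, neither normalized nor filtered. The submitters' processing notes name HISAT2, featureCounts, DESeq2 and hg38, while the study's methods name hg19. The step that divided reads among transcripts of a gene and its use of strand are not given in the sources used here, although the dUTP step in the labels' protocol keeps strand. Of 252618 transcripts, 249787 (98.9%) were matched by identifier to GENCODE v44lift37 and summed to 61014 genes; 4 with assembler-made identifiers and those not matched (together 0.273% of the counts) were left out. Gene and transcript coordinates are GRCh37, and promoter sequences are from RefSeq on GRCh38.p14, with no conversion between builds.

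Gene sums, and separately the transcripts, were compared by edgeR 4.0.16 under R 4.3.3, after TMM scaling and filterByExpr, in a robust quasi-likelihood fit on group. Benjamini-Hochberg adjustment covered all features tested. Calls needed, as in the study's RNA-seq methods (its lncRNA comparison gives an unadjusted p), a log2 fold change beyond 1 and an adjusted p under 0.05. CPM uses TMM-scaled totals, with means ± SD (n = 3). Levels per kb divide each transcript's counts by its length before summing. The subtraction of the olfactory receptor background instead used the mean length of each gene's annotated transcripts. Nothing states that replicates came from separate cultures, so p-values measure the spread between these libraries, which may be technical, and floors and intervals of counts cover counting error only. Pairs of replicates differed by more than counting error. As alternatives, the fits were repeated with RLE size factors, in DESeq2 1.42.0, without the filter or with a minimum of 10 counts per library, with a replicate block, without each library in turn, with a loess correction (span 0.3) for GC content and length, with the olfactory receptor background subtracted, after thinning to the smallest library, on protein-coding transcripts only and without a minimum fold. The genes named are the 9 members, up to 6 called genes per direction of each list, the 3 genes of each list with the highest level per kb, and the leading or called transcripts of the members. The members and lists were chosen with earlier results of these data known. The fits were tested on simulated data whose spread did not exceed that of the gene sums (common coefficient of variation between replicates 0.453). It lay well below that of the transcripts (1.02), so the simulation does not cover the transcript calls. CD24 and PECAM1 were not analysed here.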

Additional observations from a re-analysis of the deposited data

How the results depend on the processing

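The directions of ALDH1A1, ALDH1A2, RARB, CRABP2 and CYP26B1 held under every alternative in which they could be tested, and those of ALDH1A3, RARA and RARG under all but the correction for GC content and length (−0.15, −0.54 and −0.83 on the log2 scale). That correction moved the median of all genes from −0.05 to −0.18 and the correlation of fold change with GC content from 0.55 to −0.06. It turned TNFAIP2 to −0.24 and DHRS3 to −1.26 and left 0 retinoic acid targets called higher. Of the pathway genes, it called 2 higher, neither of them among those called before, and 4 lower. The split of calls over all genes changed from 1810 higher and 2307 lower to 1250 and 2413. DHRS3, near 0, was −0.05 with RLE size factors and with DESeq2, −0.11 with a minimum of 10 counts or the background removed, and from −0.23 to 0.22 with 1 library left out. The number of members called higher was 2 with DESeq2, no filter, a minimum of 10 counts, and thinning, RARA joining CYP26B1. The number called lower was 0 with no filter, a minimum of 10 counts, the background removed and protein-coding transcripts only. The minimum of 10 counts removed ALDH1A1 and ALDH1A2 from the test, and the choice of protein-coding transcripts removed ALDH1A1. With the replicate number as a block, 2 members were called higher (RARA, 1.2, edgeR adjusted p = 0.00674) and 1 lower, ALDH1A1 losing its call (−3.99, adjusted p = 0.0600), and 0 transcripts were called in either direction. The numbers were not shown to pair the libraries, since deviations of same-numbered libraries correlated at 0.185, 0.0586 and 0.217, although each correlated best with its own number.

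Over all genes, DESeq2 called 1783 higher and 3512 lower, and fewer were lower with a minimum of 10 counts (1177), the background removed (1101) and protein-coding transcripts only (1423), while 3125 were higher without a minimum fold. Over all transcripts, DESeq2 called 3443 higher and 3904 lower, and 374 were lower with a minimum of 10 counts. Without a minimum fold, 7 pathway genes were higher and 4 other ALDH genes lower. Of the pathway genes, 1 was higher with protein-coding transcripts only, and 1 was lower with that choice, with the background removed and with a minimum of 10 counts. Of the targets, 1 was higher with RLE size factors, DESeq2 and a minimum of 10 counts. Of the other ALDH genes, 2 were lower with RLE size factors, DESeq2 and a minimum of 10 counts, and 0 with thinning and with protein-coding transcripts only. With 1 library left out, calls ran from 959 to 2230 genes higher and 1103 to 3004 lower, from 0 to 26 transcripts higher and 0 to 1 lower, from 1 to 3 members higher and 0 to 1 lower, from 2 to 3 pathway genes higher and 1 to 2 lower, from 1 to 2 targets higher, and from 0 to 2 other ALDH genes lower. The cause of these changes in the number of calls was not tested. At this depth ALDH1A1, ALDH1A2 and non-BCSC CYP26B1 rest on at most 54 counts a library.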

Other observations

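Of 16 other ALDH genes, 14 passed the filter, 0 were called higher by edgeR and 1 was called lower, beside 8.85% and 11.3% of all genes (for 14 genes, counts near those shares). At an unadjusted edgeR p under 0.05, 0 were higher and 4 lower, beside 20.8% and 22.3% of all genes. By DESeq2, 0 were called higher and 2 lower, beside 8.72% and 17.2%. Their summed level was 623, 608 and 539 CPM in the BCSC libraries and 770, 741 and 661 CPM in the non-BCSC libraries, which do not overlap. ALDH3A2, which oxidises fatty aldehydes, made up the largest part of that CPM, with 142, 147 and 149 CPM in BCSC against 246, 250 and 239 CPM in non-BCSC (log2 fold change −0.75, SE 0.09, edgeR adjusted p = 0.000863, short of the fold minimum). It also made up most of the difference between the groups, and without it the summed levels overlap. ALDH3A1, a detoxifying enzyme known from the cornea, was the gene called lower, at 5.52, 2.35 and 2.60 CPM against 12.5, 11.5 and 5.66 CPM (−1.49, SE 0.50, edgeR adjusted p = 0.0484), and it was called in 2 of 6 fits with 1 library left out. ALDH7A1, of lysine breakdown, overlapped between the groups at 126 ± 5.16 and 136 ± 4.15 CPM (−0.11, 95% interval −0.33 to 0.12). The mitochondrial ALDH1B1 had 42.5, 44.9 and 43.2 CPM in BCSC against 40.1, 30.4 and 27.1 CPM in non-BCSC, with an edgeR adjusted p of 0.119. ALDH5A1 (−0.95, edgeR adjusted p = 0.0300) and ALDH6A1 (−0.79, edgeR adjusted p = 0.0224) were lower in 3 of 3 BCSC libraries without reaching the fold minimum, and are named after their values were seen.

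The BCSC libraries, sorted for higher ALDH activity, held less summed RNA of these other ALDH genes, a difference that came mostly from ALDH3A2. Their sum of the 3 ALDH1A genes overlapped with that of the non-BCSC libraries. Enzyme activity was not analysed here.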
